A study of Mus musculus with 36 samples.

Results

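The replication-dependent histone genes encode the histones that package newly copied DNA. Here they were the 67 gene rows, of 54842 in the count table, whose GENCODE M21 symbol begins with Hist1h, Hist2h, Hist3h or Hist4h, that are annotated as protein coding, and whose summed count over all 36 libraries was at least 100. The members were chosen by their names and by this summed count, so their levels are given as a description. They comprised 6 genes for the linker histone H1, 18 for H2A, 18 for H2B, 12 for H3 and 13 for H4. All 67 were followed through a time course in which the major satellite repeats (MSR) of mouse pericentric heterochromatin were switched on with a dCas9 activator and the inducer was then taken away.

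H2A, H2B, H3 and H4 form the nucleosome core and H1 binds the linker DNA between nucleosomes. The replication-dependent genes are transcribed in S phase, and most of their mRNAs end in a stem-loop instead of a poly(A) tail. That stem-loop is bound by the stem-loop binding protein Slbp, which takes part in 3′ end formation, export, translation and decay of these mRNAs. Transcription of the clustered genes depends on Npat, a cofactor that cyclin E and its kinase phosphorylate, and the mRNAs are rapidly degraded when DNA synthesis stops. Cells outside S phase and cells with less histone mRNA each therefore give the same reading in a bulk library, and fewer cells of a kind cannot here be told apart from less RNA per cell.

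Both lines were mouse embryonic fibroblasts (MEF) carrying a doxycycline-inducible construct, integrated with the PiggyBac transposon, that held the dCas9 component and a guide RNA against MSR on 1 plasmid. The cells were maintained under hygromycin, and according to the methods of the study the medium for induction held none. MSR-dCas9-Control MEF cells expressed dCas9 without an effector, and MSR-dCas9-Activator MEF cells expressed dCas9-VPR, a fusion to a transcriptional activator. Doxycycline was given at 10 ng/ml, for 24 h in the Control line and for 6 h in the Activator line, so that the induction time and the line cannot be told apart at any time after induction. Each line was sampled uninduced, at the end of induction (induced), and 3 h, 6 h, 12 h and 24 h after doxycycline was removed, with 3 replicates in each of these 12 groups. The study describes the replicates as independent experiments, and whether libraries of the lines with the same number come from the same experiment is not given in the sources used here.

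Total gene counts ranged from 27376846 to 57371803 per library (median 42865961), of which the members took 72937 to 296034. The targeted repeat, the GSAT_MM family, checked the labels: it stood at 22.4 to 51.6 counts per 1e6 gene counts in the 18 Control libraries, at 53.5 to 101 in the uninduced Activator libraries, and at 2324 to 40072 in the other 15 Activator libraries. Of 10 fibroblast markers, Col1a1 ranged from 2954 to 14266 CPM (counts per 1e6 gene counts) while Thy1 was at 0 in 10 libraries. Of the markers of other cell types, Epcam was at 0 in 25 libraries, Adgre1 in 29 and Myod1 in 27. Others in these lists were never at 0: Csf1r stood at 6.87 to 19.4 CPM, Cd68 at 3.10 to 8.93 and Des at 2.10 to 8.58. The median of Csf1r, 9.01 CPM, was above that of the fibroblast marker Twist1, 8.55. Sums of markers of other cell types also moved with the Activator line: the 3 endothelial markers summed to 5.23 to 32.5 CPM in the induced and later Activator libraries against 0.0925 to 0.946 in the Control libraries, through Pecam1 (up to 31.3 CPM) while Cdh5 did not exceed 0.601. The summed fibroblast markers were 12804 to 24532 CPM in the Activator line at 24 h and 25144 to 29626 in the Control line. The part of these shifts in the results on the histone genes was not tested.

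Most members lay in the large Hist1 cluster, with 54 at chr13:21715763-23934851 (GRCm38), while Hist2 held 10 at chr3:96219865-96270132, Hist3 held 2 on chromosome 11 and Hist4 held 1 on chromosome 6. The lowest members just inside the limit were Hist1h2aa with a summed count of 117, Hist1h2ba with 431, Hist1h1t with 507 and Hist3h2ba with 722. No protein-coding histone row fell under the limit, and the 3 rows just outside the rule were pseudogenes by annotation, Hist1h2aj (515), Hist3h2bb-ps (570) and Hist1h2al (26149). Hist1h2aa, Hist1h2ba and Hist1h1t are testis forms, and their mean levels here were 0.0762, 0.283 and 0.330 CPM. Enough counts for the test were held by 66 of the 67 members, all but Hist1h2aa.

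The stem-loop itself was read from the annotated transcripts, because it is the feature that sets these mRNAs apart. A perfect stem of 6 base pairs around a loop of 4 bases was found within 100 bases after the stop codon in 44 of the 67 members. The capitals mark the 16 bases of the stem-loop and the lower case letters mark 5 flanking bases on each side, written as DNA 5′ to 3′ on the coding strand. The 4 shown carry the 2 commonest forms and 1 rarer form, in genes whose levels are followed below.
Hist1h2bh, chr13:23542928-23542943, minus strand: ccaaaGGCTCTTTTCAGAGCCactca
Hist1h1d, chr13:23555787-23555802, plus strand: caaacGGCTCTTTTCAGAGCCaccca
Hist1h4c, chr13:23698089-23698104, minus strand: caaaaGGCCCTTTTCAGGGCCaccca
Hist2h2ac, chr3:96220418-96220433, minus strand: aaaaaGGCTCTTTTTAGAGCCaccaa

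The form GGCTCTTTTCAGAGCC was found in 26 members, 3 for H1, 10 for H2A, 8 for H2B and 5 for H3, and in no H4 gene. H4 genes had their own stem, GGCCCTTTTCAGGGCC in 7 members, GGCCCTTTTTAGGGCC in 2 and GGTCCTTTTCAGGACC in 2. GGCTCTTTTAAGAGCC was found in 6 members and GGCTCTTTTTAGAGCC in Hist2h2ac only. Of the 23 members without a match, 17 had fewer than 95 annotated bases after the stop codon: 15 had 0 to 2, so that the window was missing, and Hist1h1a and Hist2h3b had 48 and 37, in which no match was found. The other 6 were Hist1h2bc, Hist1h2bq, Hist1h2br, Hist1h3g, Hist1h4a and Hist2h2be.

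Per kilobase of exon, the members with the highest levels over all libraries were H4 genes, Hist1h4k at 483 CPM per kb, Hist1h4d at 317, Hist1h4n at 298 and Hist1h4h at 295. The H4 class had the highest median at 161 CPM per kb, followed by H3 at 110, H1 at 76.5, H2B at 70.7 and H2A at 21.2. Hist1h1b was highest among the H1 genes at 202 CPM per kb and Hist1h2bg among the H2B genes at 264. Transcript models differed from 312 to 7425 bases in length, and a long model lowers the value per kb of a gene whose reads fall in a short stretch of it.

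Libraries with different replicate numbers stood apart from each other in the level of these genes. In the Control line the summed level of all members in replicate 1 was 2598 to 3683 CPM over the 6 times, against 5075 to 6099 in replicate 2 and 5601 to 6562 in replicate 3, with no overlap between replicate 1 and the other two. The H2A genes were the most affected, at 58.1 to 102 CPM in Control replicate 1, 180 to 235 in replicate 2 and 466 to 537 in replicate 3. In the Activator line they summed to 60.5 to 139 CPM in replicate 1, 250 to 466 in replicate 2 and 190 to 450 in replicate 3. H1 genes were steadier, at 739 to 825 CPM in Control replicate 1, 901 to 1094 in replicate 2 and 885 to 1023 in replicate 3.

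Base composition was set beside this difference between replicates. The median GC content of the annotated transcripts was 64.2% for H2A, 59.9% for H3, 56.2% for H4, 55.9% for H2B and 53.1% for H1. Across the 67 members, the difference of replicate 1 from replicate 3 in mean log2(CPM + 0.1) had a Pearson r with GC content of -0.56 in the Control line and -0.54 in the Activator line, over genes that share libraries and are not independent. For replicate 1 against replicate 2 it was -0.42 and -0.55, and for replicate 2 against replicate 3 it was -0.50 in the Control line and -0.02 in the Activator line. The classes did not follow GC content throughout: in the Control line the median difference of replicate 1 from replicate 3 was -0.95 for H2B and -0.48 for H4, at nearly equal GC content. H2A members were lower in replicate 1 than in replicate 3 by a median of -3.16 on this scale in the Control line and -2.17 in the Activator line, while H1 members differed by -0.10 and 0.14. What GC content has to do with the difference was not tested. Replicate number was a term of the fitted model, and counts of called members are also given below without the replicate 1 libraries of the Control line.

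**Figure D1:**
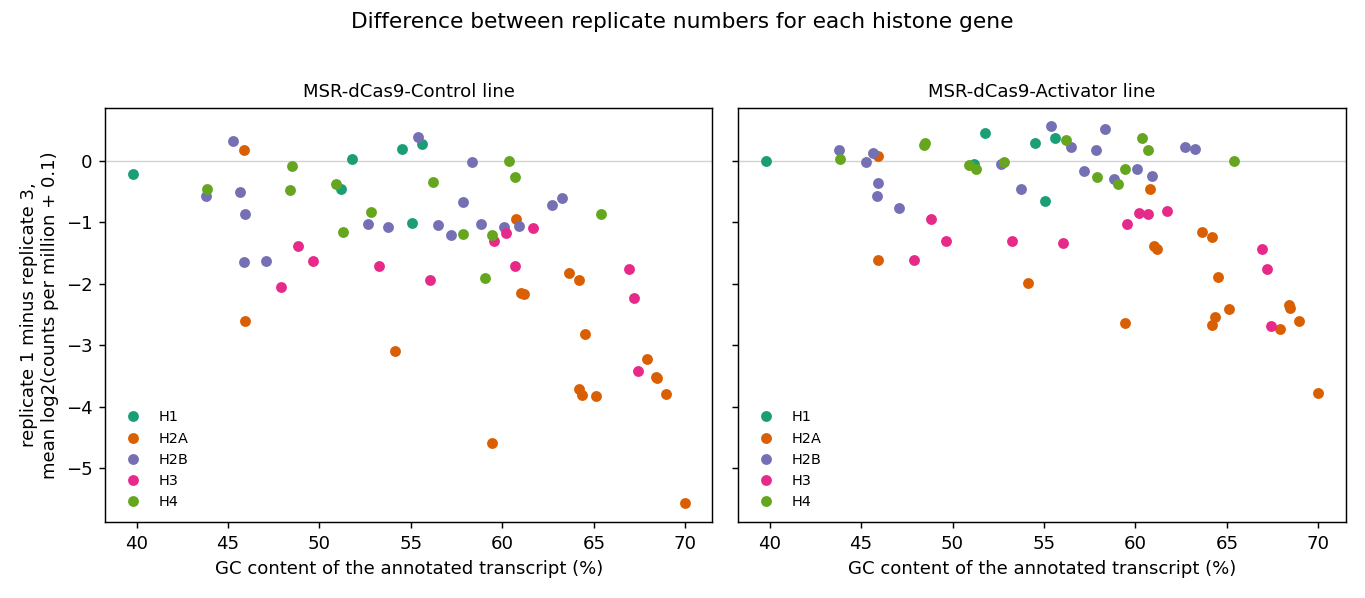
Difference between replicates 1 and 3 for each of the 67 histone genes (mean over the 6 times of log2(CPM + 0.1), vertical axis) against the GC content of its annotated transcript in percent (horizontal axis), for the Control line and the Activator line, coloured by histone class. H2A genes, at a median GC content of 64.2%, lie lowest, with medians of -3.16 and -2.17. The H1 medians lie near 0, at -0.10 and 0.14, while the H1 gene Hist1h1c lies at -1.02 and -0.65.

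Some member counts cannot be assigned to 1 gene. All 18 H2A members overlap an annotated gene model on the opposite strand, for 17 of them a model of biotype miRNA, and these partners carried counts of their own: over the 36 libraries Gm44484 had a median of 0.595 counts for each count of Hist1h2ab, and the log2 counts of this pair had an r of 0.99. Hist1h4b with 4930558J22Rik, and Hist2h3b and Hist2h2bb with Gm20628, overlap in the same way. The libraries were stranded, but the strand setting of the counting is not given in the sources used here, so reads of these pairs cannot be told apart. In 24 members over 50% of the 100-base windows also occur in another histone gene, and in 10 members none do; how reads with several matches were shared between genes is not given either.

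Before induction the 2 lines did not differ in any member that passed the test. The summed level was 3774, 5824 and 4587 CPM in replicates 1 to 3 of the uninduced Activator line and 2598, 6099 and 5601 in the uninduced Control line, and the groups overlapped. A member was called when edgeR's quasi-likelihood test, adjusted by Benjamini-Hochberg over all 28536 genes tested, gave an adjusted p under 0.05, the log2 fold change was beyond 1 and the mean normalised count was above 100. By this rule 0 of 66 members were called in the uninduced state (2 at an unadjusted p under 0.05, and 0 with DESeq2), where 0.214% of all genes were called. In the Control line, induction gave 0 called members (4 at an unadjusted p under 0.05, and 0 with DESeq2; 0.0561% of all genes) and 24 h after removal 0 as well (1 at an unadjusted p under 0.05, and 0 with DESeq2; 0.109% of all genes).

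At the end of induction, the summed level of the members was near or above the uninduced level in both lines. Relative to uninduced, replicates 1 to 3 were at 1.34, 0.999 and 1.20 in the Activator line. In the Control line they were at 1.36, 0.967 and 1.14. The sums were 5044, 5820 and 5506 CPM in the Activator line and 3534, 5898 and 6393 CPM in the Control line. Against its own uninduced state, the Activator line had 0 called members (14 at an unadjusted p under 0.05, and 0 with DESeq2), while 8.43% of all genes were called. The member median log2 fold change was 0.28 against 0.08 for all genes. Without Activator uninduced replicate 2, 1 member was called, and without replicate 2 in all groups 3 were. Against the induced Control line 1 member was called higher and 0 lower, where 2.78% of all genes were called higher and 5.71% lower.

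After doxycycline was removed, the mean summed level of the Activator line was lower at each later time. Replicates 1 to 3 summed to 2607, 5372 and 4748 CPM 3 h after removal and to 3120, 4087 and 4298 CPM after 6 h. They summed to 2954, 3677 and 3094 CPM after 12 h and to 1992, 3055 and 2252 CPM after 24 h. In the Control line they were 3639, 5626 and 5939 CPM at 24 h, so that at 24 h every Activator library lay below every Control library. The ratio of the mean sums, Activator to Control, was 0.992 uninduced and 1.03 induced, and over the 4 times after removal it was 0.875, 0.772, 0.596 and 0.480. These are descriptions of summed levels and carry no test.

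**Figure D2:**
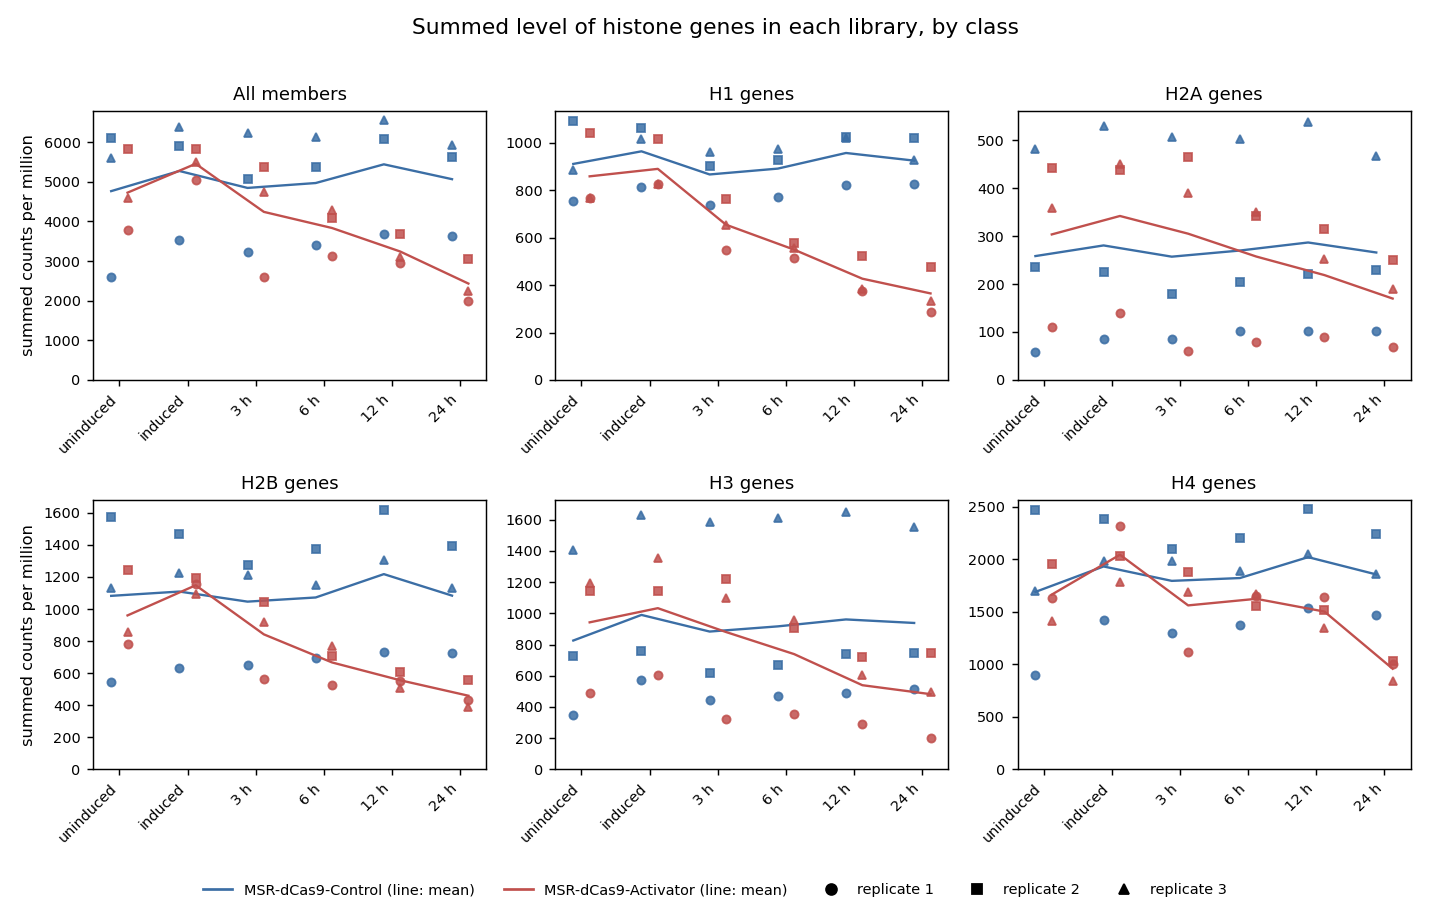
Summed CPM of all 67 histone genes and of each class (vertical axes, from 0) in each library, at 6 times (horizontal axes), for the Control line (blue) and the Activator line (red). Points are single libraries with a symbol for each replicate number and lines join the means of 3; the Activator line spans 3774 to 5824 CPM uninduced and 1992 to 3055 at 24 h, and Control replicate 1 lies below the other Control replicates.

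Taken within each replicate number, the sum of all members at 24 h was 0.528, 0.525 and 0.491 of the uninduced level in the Activator line, a narrower spread than that of the levels themselves. In the Control line the same ratios were 1.40, 0.922 and 1.06. H1 genes had the lowest mean ratio of the classes at 12 h, with 0.488, 0.502 and 0.500 of the uninduced level, and stood at 0.373, 0.456 and 0.435 a further 12 h on. H4 genes were still at 1.01, 0.776 and 0.952 after 12 h, and stood at 0.617, 0.527 and 0.596 after 24 h. H2B genes reached 0.550, 0.448 and 0.456 at 24 h, H3 genes 0.415, 0.651 and 0.417, and H2A genes 0.628, 0.566 and 0.531. At 24 h, 52 of the 67 members were below their uninduced level in all 3 replicate numbers of the Activator line and 2 were above it in all 3, against 1 and 14 in the Control line. The share of all genes that moved in this way was not computed, so these counts are a description of the members alone.

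At single members the fall showed in rising numbers of calls. At 3 h after removal 2 of 66 members were called lower than in the Control line and 2 higher, where 9.45% of all genes were called lower and 3.39% higher. At 6 h 6 members were called lower and 1 higher (10.3% and 3.6% of all genes). At 12 h 18 members, or 27.3%, were called lower and 0 higher, against 10.9% and 4.29% of all genes. At 24 h 32 members, or 48.5%, were called lower and 0 higher, against 4.12% and 3.34% of all genes. Called shares of the members were thus under the background at 3 h and 6 h and over it at 12 h and 24 h. The background is a share of all 28536 genes tested, among them genes whose mean normalised count was too low for a call. A share among genes above that limit was not computed, so the shares of members and of all genes are not strictly alike. The median log2 fold change of the members over these 4 times was -0.00, -0.17, -0.61 and -1.001 in turn, while that of all genes was 0.16, 0.13, 0.12 and 0.01.

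The count at 24 h was 16 without replicate 3 of the Activator line at 24 h, 28 without the replicate 1 libraries of the Control line, 26 without replicate number in the model and 24 with DESeq2. The counts at 3 h and 6 h rested on few libraries. At 3 h the 4 calls became 7 without Control replicate 3, 2 without Control replicate 1, 2 without Control replicate 2 and 1 without Activator replicate 2. At 6 h the 7 calls became 2 without Activator replicate 2. At the end of induction the 1 call became 7 without Control replicate 3, 6 without Activator replicate 3, and 0 without Activator replicate 1, Control replicate 1 or Control replicate 2.

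Counted by the time at which a member was called lower than in the Control line, 2 members came at 3 h and 4 more at 6 h. A further 12 came at 12 h and 16 at 24 h, and 32 of those tested were not called lower at any time. The 2 members called at 3 h were Hist1h1b and Hist1h2bh, and those added at 6 h were Hist1h1d, Hist1h2bm, Hist1h2bn and Hist2h2bb, which are H1 and H2B genes. Of the members, 3.03% at 3 h and 9.09% at 6 h were called lower, under the 9.45% and 10.3% of all genes. The class of these few early members is therefore given as a description. All 6 called at 6 h were called again at 12 h. Of the 18 called at 12 h, 16 were called again at 24 h, which is 88.9% of the former list and 50% of the latter, and the other two were Hist1h2an and Hist2h3c1.

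**Figure D3:**
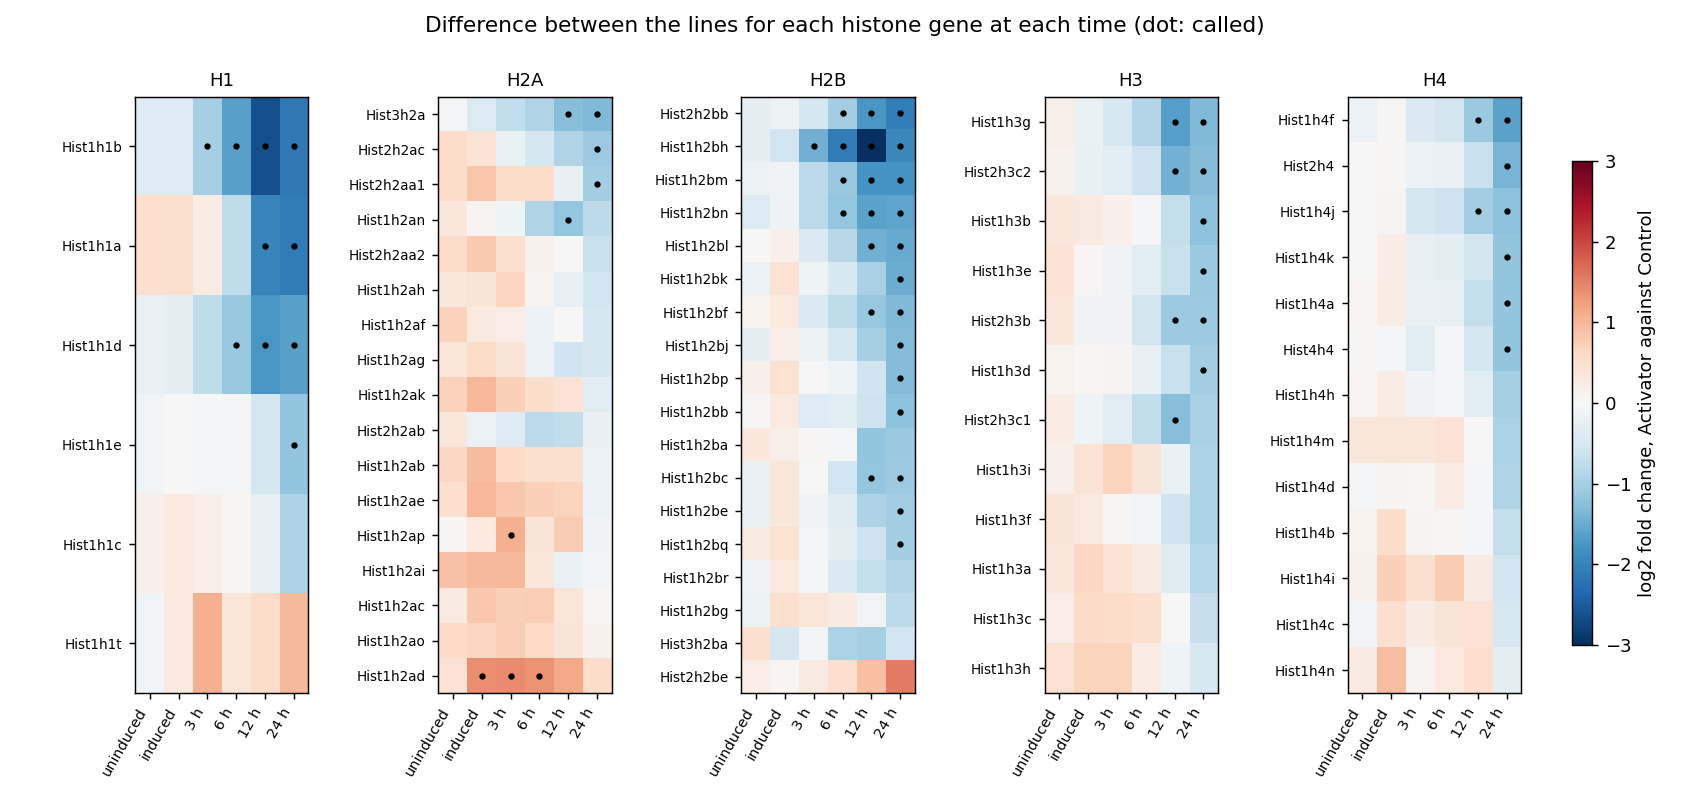
Fitted log2 fold change, Activator against Control, of each of the 66 tested histone genes (rows, by class) at the 6 times (columns), on a colour scale from blue (lower in Activator) to red (higher); a dot marks a call. The few members called lower at 3 h and 6 h are H1 and H2B genes, at shares of the members under those of all genes. At 24 h 32 members are called lower, and Hist2h2be stands out as red.

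Among the H1 genes, which encode the linker histones, 4 of 6 were called lower at 24 h. Hist1h1b (ENSMUSG00000058773, chr13:21779883-21780625 of GRCm38, minus strand) was at 37.2, 74.3 and 40.7 CPM in the Activator line at 24 h and at 231, 225 and 173 CPM in the Control line. All 3 Activator libraries were far below the Control libraries, and this held from 3 h on, when the values were 107, 100 and 74.3 against 213, 209 and 183 CPM. Its log2 fold change over the 4 times was -1.01 ± 0.13 (SE, n = 3 against 3), -1.63 ± 0.13, -2.64 ± 0.14 and -2.15 ± 0.13, with an edgeR Benjamini-Hochberg adjusted p of 7.33e-08 for the first and 2.49e-13 for the last. No 100-base window of Hist1h1b occurs in another histone gene.

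Hist1h1a (ENSMUSG00000049539, chr13:23763666-23764406, plus strand), at 59.0, 65.6 and 48.1 CPM in the uninduced Activator line, was still at 48.4, 38.2 and 39.7 CPM at 3 h, level with 37.2, 39.6 and 39.3 in the Control line. It then dropped to 9.69, 13.02 and 9.76 CPM at 24 h against 46.7, 44.8 and 39.4, a log2 fold change of -2.09 ± 0.17 (adjusted p 2.55e-11). Hist1h1d had values of 57.4, 109 and 63.4 CPM at 24 h against 194, 244 and 214 (-1.63 ± 0.12, adjusted p 3.19e-12). Hist1h1e, the most abundant H1 gene by CPM and one whose model overlaps Hist1h2be on the same strand, was at 121, 151 and 124 CPM against 235, 340 and 290, and its groups did not overlap (-1.19 ± 0.14, adjusted p 1.89e-08). Hist1h1c overlapped between groups, at 60.4, 128 and 94.3 CPM against 118, 167 and 212, and its difference of -0.92 ± 0.15 (adjusted p 9.82e-06) stayed short of the limit on fold change.

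The H2B genes gave 13 calls of 18 at 24 h. Hist1h2bh (ENSMUSG00000114456, chr13:23541714-23543392, minus strand) had the largest fall of all members at 3 h, 6 h and 12 h, with 14.9, 26.8 and 16.4 CPM at 3 h against 38.5, 66.6 and 61.9 in the Control line. At 12 h it stood at 6.51, 10.8 and 5.27 CPM against 41.4, 86.9 and 63.2. The log2 fold changes over the 4 times were -1.43 ± 0.21 (adjusted p 1e-06), -2.10 ± 0.21, -2.98 ± 0.22 (adjusted p 6.43e-12) and -1.94 ± 0.21, and the last levels were 12.7, 21.01 and 10.8 CPM. The fitted difference of Hist1h2bh and Hist1h1b was thus largest after 12 h.

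Hist2h2bb, which overlaps the antisense model Gm20628, was at 18.5, 26.7 and 15.4 CPM at 24 h against 91.5, 94.3 and 56.9 (-2.07 ± 0.15, adjusted p 2.78e-12). Of the 3 H2B genes highest by CPM, Hist1h2bk was at 28.7, 47.3 and 32.0 CPM against 59.1, 119 and 116 and did not overlap (-1.49 ± 0.24, adjusted p 9.17e-06). Hist1h2bc, which has no perfect stem-loop in its window, was at 34.0, 52.0 and 39.8 CPM against 59.4, 101 and 96.8 (-1.09 ± 0.15, adjusted p 4.79e-07), and its call was lost without Activator replicate 3 at 24 h (-0.87). Hist1h2bg differed by -0.79 ± 0.25 (adjusted p 0.00785) and was not called.

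Hist2h2be went the other way. This H2B gene (ENSMUSG00000068854, chr3:96221119-96223738, plus strand), known as a variant form in olfactory neurons, was at 5.11, 3.34 and 3.97 CPM in the Activator line at 24 h against 1.32, 1.20 and 1.499 in the Control line, and at 1.94, 1.58 and 1.68 CPM in the uninduced Activator line. All 3 Activator libraries at 24 h lay above every other library of the series. The log2 fold change was 1.53 ± 0.21 (adjusted p 4.85e-07), but its mean normalised count of 65.1 kept it under the limit for a call. It was chosen for description after its values were seen, as were Hist1h1a, Hist2h2bb, Hist1h4f, Hist1h4c, Hist3h2a and Hist2h2aa1.

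**Figure D4:**
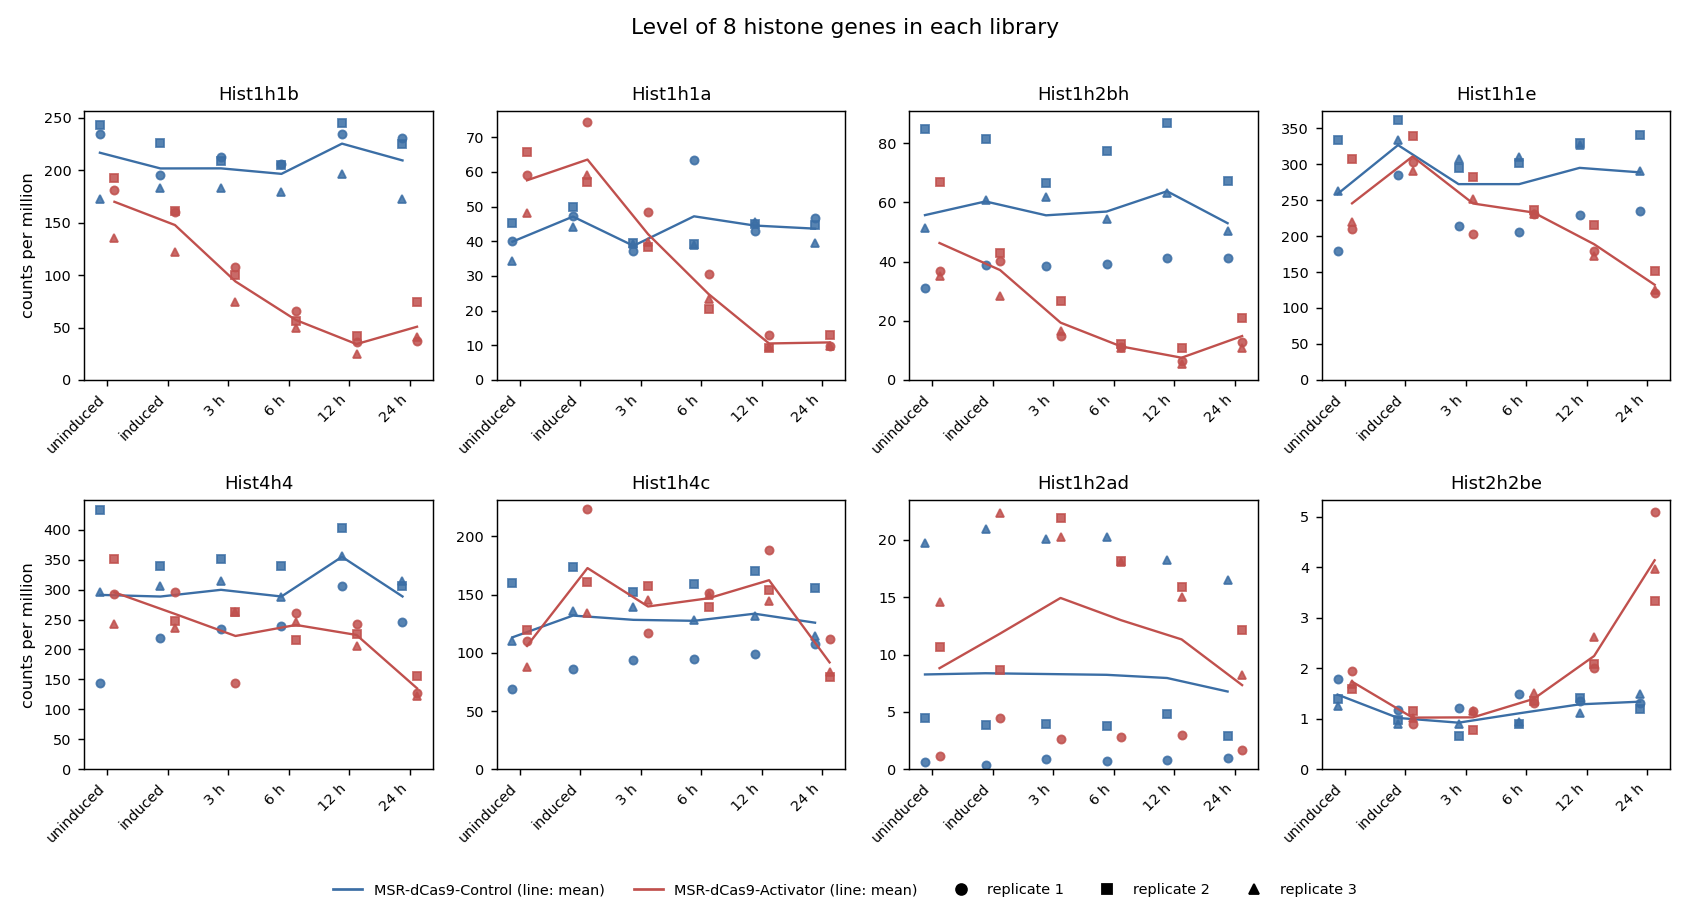
CPM of 8 histone genes (vertical axes, from 0) in each library at the 6 times (horizontal axes), Control line in blue and Activator line in red, with a symbol for each replicate number and lines through the means of 3. Hist1h1b, Hist1h1a and Hist1h2bh fall to 24 h or to 12 h, Hist1h4c does not separate the lines, Hist1h2ad separates replicates more than lines, and Hist2h2be rises to 3.34 to 5.11 CPM at 24 h.

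Of the 12 H3 genes, 6 were called lower at 24 h and all 12 had a log2 fold change below 0, from -1.34 for Hist1h3g to -0.45 for Hist1h3h. The 3 highest by CPM varied widely between replicates. Hist1h3b was at 24.7, 70.4 and 47.5 CPM in the Activator line at 24 h and at 69.6, 93.6 and 147 in the Control line, which overlap (-1.22 ± 0.23, adjusted p 7.78e-05). Hist1h3e was at 24.5, 77.5 and 54.3 CPM against 57.4, 89.0 and 183, again overlapping (-1.12 ± 0.30, adjusted p 0.00224), and Hist1h3f differed by -0.96 ± 0.33 (adjusted p 0.0136) and was not called. Without Activator replicate 3 at 24 h, Hist1h3b stood at -0.92 and Hist1h3e at -0.81 and neither was called. Hist1h3e also lost its call without Activator replicate 1 (-0.99) or Control replicate 3 (-0.98).

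Of the 13 H4 genes, 2 were called lower at 12 h with a class median of -0.33, and at 24 h 6 of 13 with a median of -0.99, and for all 13 the fitted difference was lower at 24 h than at 12 h. Hist1h4d, the most abundant member by CPM, was at 404, 314 and 319 CPM in the Activator line at 12 h against 354, 434 and 358 in the Control line, which overlap. At 24 h it was at 266, 223 and 195 CPM against 370, 487 and 359, with no overlap, a difference of -0.90 ± 0.20 (adjusted p 0.000298) that stayed short of the limit. Hist4h4 was called at -1.17 ± 0.25 (adjusted p 0.000238), with 127, 156 and 123 CPM against 246, 306 and 314, and stood at -0.99 without Activator replicate 3.

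Hist2h4 was at 66.7, 99.6 and 70.6 CPM at 24 h against 168, 195 and 218 in the Control line (-1.39 ± 0.19, adjusted p 3.68e-07). Hist1h4f (ENSMUSG00000069274, chr13:23551258-23551648, minus strand) was the H4 gene with the largest fall, from 104, 113 and 71.6 CPM uninduced to 32.4, 48.4 and 32.8 at 24 h, against 110, 118 and 96.7 in the Control line (-1.61 ± 0.15, adjusted p 6.7e-10). Hist1h4c, whose stem-loop is printed above beside that of Hist1h2bh, gave 112, 79.2 and 83.9 CPM at 24 h against 107, 156 and 115, and the 2 lines overlapped (-0.49 ± 0.27, adjusted p 0.117).

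The H2A genes gave the fewest calls, 3 of 17 tested at 24 h, with a class median of -0.31. The 3 were Hist3h2a, Hist2h2ac and Hist2h2aa1. Hist2h2ac was at 10.6, 42.9 and 27.8 CPM against 24.1, 49.6 and 92.5 (-1.09 ± 0.36, adjusted p 0.0105), and without Activator replicate 3 at 24 h it stood at -0.74 and was not called, nor was it without Activator replicate 1 (-0.95) or Control replicate 3 (-0.97). Hist1h2ab, at 7.40, 27.8 and 23.6 CPM against 5.23, 23.4 and 53.0, and Hist1h2ak, at 6.06, 28.1 and 23.6 CPM against 5.71, 21.5 and 53.6, spread over a far wider range between replicates than between lines. Their fitted differences were -0.18 ± 0.44 (adjusted p 0.740) and -0.31 ± 0.41 (adjusted p 0.520), and both turned positive without Activator replicate 3. H2A was the class with the widest replicate spread, and its low count of calls does not show that its mRNAs differed less.

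The few calls of members as higher were H2A genes too. Hist1h2ad was called higher in the Activator line at the end of induction, at 3 h and at 6 h, with log2 fold changes of 1.40 ± 0.58, 1.42 ± 0.57 and 1.34 ± 0.58 (adjusted p 0.0427, 0.0312 and 0.0431). Its libraries overlapped each time, with 2.61, 21.9 and 20.3 CPM in the Activator line at 3 h against 0.919, 3.95 and 20.05 in the Control line. Without replicate number in the model the differences were 0.62, 0.96 and 0.74 and none was called. At 3 h it was not called without Control replicate 1, Control replicate 2 or Activator replicate 2 (1.33, 1.14 and 0.95). At the end of induction it was not called without Control replicate 1, Control replicate 2 or Activator replicate 1 (1.10, 1.21 and 0.84). At 6 h it was not called without Control replicate 1, Control replicate 2, Activator replicate 1 or Activator replicate 2 (1.20, 1.04, 1.28 and 1.09). Hist1h2ap was also called higher at 3 h (1.08 ± 0.38, adjusted p 0.0142), with overlapping libraries at 1.59, 17.1 and 14.1 CPM against 1.18, 5.49 and 10.00 CPM. Its difference in change since the uninduced state was 1.05 ± 0.54 (adjusted p 0.111) and was not called, and 92.2% of its 100-base windows also occur in other histone genes.

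The members were also split by how far their reads can be assigned. Of the 46 members with no gene model on the opposite strand, 27 were called lower at 24 h, with a median of -1.12, and of the 20 tested members with such a model 5 were, with a median of -0.51. Of the 9 tested members that share no 100-base window with another histone gene, 6 were called lower, with a median of -1.31, and of the 24 members sharing over 50% of their windows 9 were, with a median of -0.82. These splits run along the classes, since every H2A gene has an opposite-strand model. Of the 44 members with a perfect stem-loop 21 were called lower at 24 h (median -0.98), and of the 6 without one despite 95 or more annotated bases 4 were (median -1.05, from -1.34 to 1.53).

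Within the Activator line itself, 35 of 66 members were called lower at 24 h than before induction and 0 higher, where 4.08% of all genes were called lower. By class these were 5 of 6 for H1, 3 of 17 for H2A, 12 of 18 for H2B, 8 of 12 for H3 and 7 of 13 for H4. The count was 22 without Activator replicate 3 at 24 h, 26 without replicate number in the model and 24 with DESeq2. Hist1h1a had the largest fall, from 59.0, 65.6 and 48.1 CPM to 9.69, 13.02 and 9.76 (-2.54 ± 0.17, adjusted p 9.83e-13). This comparison shares its 24 h libraries with the one between the lines, so the 2 counts are not independent of each other.

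The difference between the lines was also tested after the difference before induction had been taken off, which asks whether the lines changed unequally. By this test 1 member had changed lower in the Activator line at 3 h (9.33% of all genes) and 4 at 6 h (10.2% of all genes). At 12 h the count was 18 (10.6% of all genes) and at 24 h 33 (3.56% of all genes), with 0 higher at any of these times. For Hist1h1a the difference in change at 24 h was -2.59 ± 0.23 (adjusted p 6.27e-09), for Hist1h1b -1.76 ± 0.18 (adjusted p 5.85e-08), for Hist1h2bh -1.68 ± 0.29 (adjusted p 9.23e-05) and for Hist1h4f -1.44 ± 0.21 (adjusted p 9.78e-06). For Hist2h2be it was 1.33 ± 0.30 (adjusted p 0.00117).

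Genes around the histone pathway were counted in 6 lists. Between the lines, 9.45% of all genes were called lower at 3 h and 4.12% at 24 h, and 3.39% and 3.34% were called higher. A list count near these shares does not set the list apart from all genes. In the list for histone gene transcription and 3′ end processing, 3 of 20 were called lower at 3 h and 1 of 20 at 24 h, with medians of -0.08 and -0.33. At 3 h these were Coil, the marker protein of Cajal bodies (-2.31 ± 0.19), Lsm11, a subunit of the U7 particle that cleaves histone pre-mRNA (-1.63 ± 0.14), and Hinfp, a transcription factor of H4 genes (-1.01 ± 0.13); at 24 h it was Lsm11 (-1.08 ± 0.13). Slbp differed by 0.14 ± 0.12 at 3 h (adjusted p 0.298) and by -0.27 ± 0.12 at 24 h (adjusted p 0.0528). Npat was lower by -0.77 ± 0.08 at 3 h (adjusted p 2.07e-09) and -0.52 ± 0.08 at 24 h (adjusted p 2.28e-06), short of the limit on fold change both times. In the list for histone mRNA decay, 0 of 8 tested genes were called at 3 h or 24 h (medians -0.15 and -0.24).

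Cell cycle genes were counted in the same way. Of 37 genes for S phase and DNA synthesis, 4 were called lower at 3 h, with E2f2 the largest fall (-2.03 ± 0.17), and 8 at 24 h, with Gins1, a subunit of the replicative helicase, the largest (-1.55 ± 0.13). The count at 3 h was near the share of all genes called lower then, 9.45%, and that at 24 h was over the share of 4.12%. The list median was 0.25 at 3 h and -0.66 at 24 h, and 35 of 37 genes, Slbp among them, were below 0 at 24 h. Before induction 36 of 37 were already below 0, with a median of -0.20 and 0 called. For the change since the uninduced state, 3 were called lower at 24 h (median -0.46), where 3.56% of all genes were. Of 20 genes for G2 and mitosis, 0 were called at 3 h and 10 were called lower at 24 h, led by the spindle checkpoint kinase Bub1b (-1.67 ± 0.11), with a median of -1.01. Before induction 18 of these 20 were below 0 (median -0.17). For the change since the uninduced state, 7 were called lower at 24 h (median -0.86). By summed level relative to the uninduced state in the 3 replicate numbers of the Activator line, the S phase list was at 0.825, 0.752 and 0.773 at 24 h and the G2 and mitosis list at 0.604, 0.672 and 0.592, beside 0.528, 0.525 and 0.491 for the histone members. The part of a shift in cell cycle phase in the histone levels was not tested.

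The replacement variants, histone genes expressed outside S phase and with polyadenylated mRNAs, had 0 of 11 calls at 3 h and 2 lower at 24 h, H2afz (-1.23 ± 0.13) and H1f0 (-1.22 ± 0.13), with a list median of -0.69. Among 10 other RNAs that lack a poly(A) tail or are short (11 gene rows, since Rmrp has 2), Rnu12 was called lower at 3 h (-1.60 ± 0.25) and the list median was 0.46. At 24 h Scarna2 was called higher (1.13 ± 0.27), 0 were called lower, and the median was 0.73. More were called higher in between, 4 of 11 at 6 h and 6 of 11 at 12 h, with 1 lower each time (medians 0.95 and 1.07). Of all genes, 3.6% and 4.29% were called higher at these times. The list median was 0.34 before induction, with 0 called. For the change since the uninduced state, 0 were called higher at 6 h and 2 at 12 h. The share of all genes called higher for this change is not given here, so the 2 have no background beside them.

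**Figure D5:**
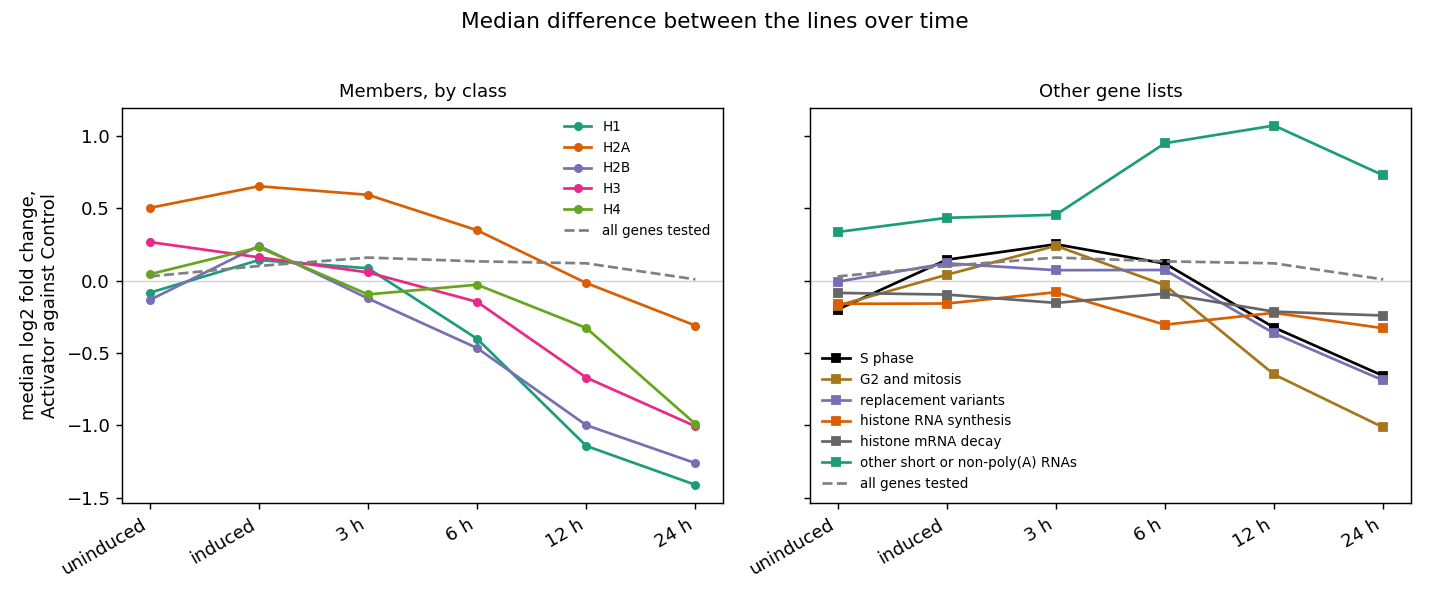
Median fitted log2 fold change, Activator against Control (vertical axis), at the 6 times (horizontal axis), for the histone classes on the left and for the other gene lists on the right, with the median of all 28536 tested genes beside them. At 24 h the class medians run from -1.41 for H1 to -0.31 for H2A, the G2 and mitosis list is at -1.01, and the list of other non-polyadenylated or short RNAs is at 0.73.

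Promoter windows of 250 bases before the annotated start (RefSeq, GRCm38.p6) were matched for 62 of the 67 members and searched on both strands for 4 motifs. CCAAT, the box bound by NF-Y, occurred in 51 of 62 (82.3%) against 33.8% of 32851 promoters of the same length, in every matched window of H1, H2A and H2B genes but in 3 of 12 for H4. TATAA occurred in 40 (64.5%, against 22.8%). The octamer ATTTGCAT was found in 13, of which 7 were H2A and 6 H2B genes (20.97% against 1.60%), and AAACACA, known from H1 promoters, in 9, including 5 of the 6 H1 genes (14.5% against 6.25%). Windows of neighbouring H2A and H2B genes on opposite strands can overlap. Those of Hist1h2aa (chr13:23934187-23934436) and Hist1h2ba (chr13:23934157-23934406) do so, and both hold the octamer. A site in such an overlap counts for both genes, so these counts are not of independent promoters. The windows of Hist1h1b and Hist1h2bh, the 2 members called lower from 3 h on, are printed with that of Hist1h4c, an H4 gene not called at any time. Capitals mark the matches of these motifs on either strand; in the Hist1h1b window the TATAA matches of both strands overlap.
Hist1h1b, chr13:21780626-21780875, minus strand: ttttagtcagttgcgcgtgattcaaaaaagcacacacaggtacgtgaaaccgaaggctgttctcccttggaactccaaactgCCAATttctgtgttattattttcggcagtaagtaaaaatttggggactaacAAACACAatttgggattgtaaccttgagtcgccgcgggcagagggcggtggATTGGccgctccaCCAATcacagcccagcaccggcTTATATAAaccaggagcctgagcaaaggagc
Hist1h2bh, chr13:23543445-23543694, minus strand: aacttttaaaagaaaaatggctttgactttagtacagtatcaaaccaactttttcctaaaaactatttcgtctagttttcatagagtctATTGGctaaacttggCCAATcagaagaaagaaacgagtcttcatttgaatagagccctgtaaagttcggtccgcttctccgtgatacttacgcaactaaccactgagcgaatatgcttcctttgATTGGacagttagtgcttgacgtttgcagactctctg
Hist1h4c, chr13:23698459-23698708, minus strand: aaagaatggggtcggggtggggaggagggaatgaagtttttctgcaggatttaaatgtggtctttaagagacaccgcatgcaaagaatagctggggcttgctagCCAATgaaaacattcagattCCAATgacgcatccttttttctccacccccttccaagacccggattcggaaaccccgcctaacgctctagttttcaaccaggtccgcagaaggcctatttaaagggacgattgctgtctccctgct

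All 3 printed windows hold CCAAT, and Hist1h4c is among the 3 H4 genes that do. TATAA and AAACACA were found in the Hist1h1b window and in neither of the others.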

How the data were processed

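RNA was measured in 36 libraries of ribosome-depleted, stranded total RNA (paired-end Illumina), grouped by the labels' line, time and replicate number. According to the methods of the study, the authors trimmed reads with cutadapt, aligned them with STAR to GRCm38 and counted them with TEtranscripts. The deposited values are whole-number counts per gene (54842 rows) and per repeat family (1561 rows). The annotation release, the strand setting and the sharing of reads with several matches are not given in the sources used here. A row that names no gene held 0.003263% of the counts and was left out. Symbols, biotypes and positions came from GENCODE M21, which matched 54495 gene rows. CPM (counts per 1e6 counts) was taken over gene rows only.

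The counts were fitted with edgeR 4.0.16 (R 4.3.3; limma 3.58.1): TMM factors, filterByExpr over the 12 groups, a robust quasi-likelihood fit on group plus replicate number over all 36 libraries, and Benjamini-Hochberg adjustment over 28536 genes. The SE was obtained as the size of the log2 fold change over the root of its F statistic. The fit was also run on simulated counts, with the same dispersion for every gene and no difference between replicate numbers. That run does not cover a replicate spread such as that of the histone genes here. The members and gene lists were chosen with earlier results of these data known. Named were the 3 members of each class with the highest mean CPM, the called member with the largest rise and fall in each comparison between the lines, members at the limit of the rule, the testis forms, Slbp, Npat, and the called gene with the largest rise and fall in each other list at 3 h and 24 h; others were chosen after their values were seen. Alternatives were DESeq2 1.42.0, other scalings, no filter on low counts, no replicate term, fewer libraries and each replicate left out; some were added after seeing the data. Windows of 100 bases were compared between histone transcripts. Promoter windows came from RefSeq; protein sequences were not used here.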

Additional observations from a re-analysis of the deposited data

Results flagged for a closer look

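The change since the uninduced state differed between the lines, by the edgeR interaction test with Benjamini-Hochberg adjustment over all genes, in 1, 4, 18 and 33 members over the 4 times after removal, all lower in the Activator line, where 9.33%, 10.2%, 10.6% and 3.56% of all genes were called lower. In examples past an adjusted p of 0.05, the difference in change at 24 h was, among H1 genes, -1.11 for Hist1h1e, -1.42 for Hist1h1d, -1.06 for Hist1h1c and -2.59 for Hist1h1a. It was -1.64 for the H2A gene Hist2h2ac and, among H2B genes, -1.32 for Hist1h2bk, -0.89 for Hist1h2bc and 1.33 for Hist2h2be. Among H3 genes it was -1.35 for Hist1h3f, -1.53 for Hist1h3e and -1.54 for Hist1h3b. Among H4 genes it was -0.87 for Hist1h4d, -1.22 for Hist4h4 and -1.40 for Hist2h4. Hist1h1c and Hist1h3f, short of the limit in the direct comparison of the lines at 24 h, were past a log2 difference of 1 here, and Hist1h2bc was past it there and not here.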

How the results depend on the processing

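Members called lower were found at 12 h and 24 h under every alternative run, and the counts at the earlier times did not keep their size. At 12 h the 18 calls became 31 with the adjusted p alone and 36 with scaling to the mitochondrially encoded mRNAs. They became 14 with DESeq2 and 13 with its size factors, and stayed between 14 and 26 with replicates left out. At 24 h the 32 calls became 45 with the adjusted p alone, 41 with mitochondrial scaling and 24 with DESeq2 or its size factors. They ranged from 16 to 36 with replicates left out. For the Activator line at 24 h against uninduced, 35 calls ranged from 22 to 44. At 6 h the 7 calls became 19 with the adjusted p alone, 4 for the change since the uninduced state, 3 with DESeq2 or its size factors and 25 with mitochondrial scaling, and 2 to 9 with replicates left out. At 3 h the 4 calls became 11 with the adjusted p alone, 1 for the change since the uninduced state, 12 with mitochondrial scaling, 2 without TMM, 2 without the Control replicate 1 libraries, 2 with only the groups compared, and 1 to 9 with replicates left out. For the induced groups the 1 call became 12 with the adjusted p alone, 4 with DESeq2 or its size factors, 3 with repeat families in the library size, 2 with only the groups compared and 0 with each of the change since the uninduced state, no TMM, mitochondrial scaling, no filter and no Control replicate 1 libraries, and 0 to 9 with replicates left out. The Activator line, induced against uninduced, went from 0 calls to 9 with the adjusted p alone and 0 to 3 with replicates left out. These scalings moved the median of all genes, to -0.49 with mitochondrial scaling and to 0.33 with DESeq2 size factors at 12 h. Hist1h2ab at 24 h turned from -0.18 to 0.038 with DESeq2 and ranged from -0.53 to 0.31 with replicates left out (0.30 without replicate 3), and Hist1h2ak ranged from -0.56 to 0.14 (0.12 without Activator replicate 3). The cause of these moves was not tested. The ratio of summed levels, Activator to Control, ranged with replicates left out from 0.890 to 1.10 uninduced and 0.921 to 1.15 induced, and over the later 4 times in turn 0.777 to 0.962, 0.729 to 0.820, 0.535 to 0.679 and 0.443 to 0.545.

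Replicate numbers are shared by the lines, but same-numbered libraries of the 2 lines had correlations of their deviations from -0.0067 to 0.222 over all genes. Over the members these were 0.744 to 0.930 for replicate 1, 0.836 to 0.911 for replicate 3 and -0.422 to 0.360 for replicate 2, and within a line 0.482 to 0.982. Libraries of the 2 lines with different numbers were not compared in this way. These values therefore do not decide whether the lines pair by number. The study's model also held replicate. With no replicate block the counts were 0 induced and then 2, 6, 17 and 26 over the later 4 times. With a replicate block within each line, chosen after seeing the data, they were 4, 5, 7, 20 and 34, and for the change since the uninduced state 0, 2, 5, 18 and 40. Depth limits the testis forms and Hist2h2be, whose counts are low.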
